A study of Mus musculus with 3 samples.

Results

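The Gnas complex is an imprinted locus of distal mouse chromosome 2, and the data described here are the array probes that tile it. Members were all non-control probes whose mm9 position lay within the locus window, which gave 105 of 409597 distinct placed probes. Their starts lay at most 500 bp apart within 6 runs, and these runs were treated as 6 tiled regions of 28880 on the array. No probe of the window fell outside them. The first probe began at 174092426 and the last ended at 174173298. Probes were 45 to 60 nt long.

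DNA methylation was measured in frontal cortex of male C57BL/6 mice aged 2 months that are labelled naive. There was 1 group of 3 arrays, each made from a DNA pool of 3 mice according to the protocol. Methylated fragments were captured with an antibody against 5-methylcytosine (methylated DNA immunoprecipitation), and bound DNA (Cy5) was hybridised with input DNA (Cy3) of the same pool. Sample titles number the replicates 1 to 3, whereas every sample description calls its array replicate 1, so whether the arrays are 3 separate pools rests on the titles. Each value is the log2 of bound over input signal, less that of the array's median probe, and errors are SDs over 3 arrays. A value of 0 is therefore neither methylated nor unmethylated DNA, and the scale gives no percentage of methylation. CpG density per probe could not be computed, so its part in the differences between regions was not tested. Frontal cortex holds neurons and glia, and the pooled DNA carried both parental alleles, so neither cell types nor alleles could be told apart. Only 3 arrays limit the precision of every value.

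As background, genomic imprinting marks 1 parental copy of a gene by DNA methylation, so that transcripts are made mainly from the other copy. The Gnas complex makes several transcripts from separate starts that share downstream exons. Nesp encodes a secretory protein of neuroendocrine cells and is expressed from the maternal copy, with its promoter methylated on the paternal copy. Gnasxl, which encodes a large variant of the stimulatory G protein alpha subunit, and the antisense RNA Nespas are expressed from the paternal copy, with methylation on the maternal copy. Exon 1A, the first exon of a further paternal transcript, is also methylated on the maternal copy. The main Gnas start makes the alpha subunit that couples hormone and neurotransmitter receptors to adenylyl cyclase, and its CpG island is known as unmethylated on both copies.

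The 6 regions were numbered along the chromosome. Region 1 covered 174092426 to 174094262 and region 2 covered 174108634 to 174111076. Region 3, at 174122186 to 174123546, lay nearest the position given for Nespas and Gnasxl. Region 4, at 174152076 to 174153479, lay at the position given for exon 1A. Region 5, at 174154451 to 174155910, followed it and was taken as that of the main Gnas start. Region 6 covered 174172012 to 174173298. The files name no genes, and the annotation used here is of another build (GRCm38.p6), so no position was carried from one build to the other. Distances could be compared within each build. In GRCm38.p6 annotated Gnas start 1 lies 43429 bp before start 2 and 45686 bp before start 4, and start 2 lies 2257 bp before start 4. Probes of region 2 lay 41000 to 44845 bp before those of region 4, and probes of region 4 lay 972 to 3834 bp before those of region 5. The hairpins of the microRNAs Mir296 and Mir298, which neighbour the antisense gene in the RefSeq gene order, begin 17273 and 16816 bp before start 1. Probes of region 1 lay 14372 to 18650 bp before those of region 2.

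The starts themselves are shown because the values below turn on how the tiled regions at them differ. RefSeq lists 4 Gnas starts, numbered here along the chromosome, of which starts 2 and 3 lie 19 bp apart. None for the antisense RNA was in the table used. If that of Gnasxl is not among the 4 either, which the table does not state, their order makes start 1 that of Nesp, starts 2 and 3 those of exon 1A and start 4 the main one. The 250 bases before each start are given 5′ to 3′ on the + strand, with every CpG, the site of the modification, in capitals.
Start 1 (chr2:174284070-174284319, GRCm38.p6): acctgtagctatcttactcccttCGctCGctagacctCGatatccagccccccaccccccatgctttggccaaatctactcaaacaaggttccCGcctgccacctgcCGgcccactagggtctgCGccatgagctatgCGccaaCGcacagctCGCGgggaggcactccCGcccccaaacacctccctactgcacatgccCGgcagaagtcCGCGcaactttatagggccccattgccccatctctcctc
Start 2 (chr2:174327499-174327748, GRCm38.p6): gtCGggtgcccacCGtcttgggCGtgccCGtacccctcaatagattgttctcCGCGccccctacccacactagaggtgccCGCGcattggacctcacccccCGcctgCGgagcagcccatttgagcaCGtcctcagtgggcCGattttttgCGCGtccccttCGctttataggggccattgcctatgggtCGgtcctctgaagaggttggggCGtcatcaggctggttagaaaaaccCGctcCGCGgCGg
Start 4 (chr2:174329756-174330005, GRCm38.p6): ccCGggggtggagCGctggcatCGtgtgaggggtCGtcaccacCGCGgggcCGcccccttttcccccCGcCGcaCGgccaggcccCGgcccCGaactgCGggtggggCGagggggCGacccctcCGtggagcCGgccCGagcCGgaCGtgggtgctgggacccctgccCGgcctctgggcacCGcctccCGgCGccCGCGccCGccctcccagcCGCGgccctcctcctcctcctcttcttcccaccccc

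The sequence of start 1 held 14 CpGs, that of start 2 held 21 and that of start 4 held 29, against a median of 6 over 32817 promoter sequences of the same length. At least as many CpGs as before start 4 were found in 6.78% of those promoters, and at least as many as before start 1 in 29.3%. GC content was 61.6% before start 1, 63.2% before start 2 and 80.0% before start 4. Because the series concerns binding of the TATA-binding protein, the letters TATAAA were searched on both strands. They occurred once each on the reverse strand before start 1, from 31 bases upstream, and before start 2, from 85 bases upstream, and not before start 4. On either strand they were present in 12.4% of all promoters. The letters TGCCGC, the core bound by the imprinting factor ZFP57, were found on neither strand of the 4 sequences and in 8.68% of all promoters.

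Across the locus, the ratio of bound over input DNA was above that of the median probe in all 6 regions. It was highest at region 4, around exon 1A. By limma's 1-group fit over all 28880 regions (Benjamini-Hochberg adjusted p under 0.05), 6 of 6 regions were higher and none was lower, while 28.0% of all regions were higher and 38.1% were lower. The median over all regions was -0.11. At region 4 the 3 arrays read 1.95, 2.17 and 1.76, a mean of 1.96 ± 0.21 (n = 3), or 3.9-fold above the median probe (limma adjusted p = 2.16e-07). Of all regions 98.8% had a lower mean. Region 2, which holds Gnas start 1 if placed by its spacing, read 1.90, 1.89 and 1.30 (1.70 ± 0.34, 3.25-fold, adjusted p = 1.18e-06). Region 3, near Nespas and Gnasxl, read 1.90, 1.58 and 1.24 (1.57 ± 0.33, 2.98-fold, adjusted p = 1.84e-06). Region 4 was the highest of these 3 on each array, but their ranges over arrays overlapped. Region 4 minus region 3 did not pass, as given with the neighbouring regions, and region 4 minus region 2 was not tested.

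Region 6 followed at 1.25, 1.12 and 1.06 (1.15 ± 0.10, 2.21-fold, adjusted p = 5.53e-06). Region 5, taken as that of the main Gnas start, read 1.36, 0.91 and 0.73 (1.00 ± 0.33, 2.0-fold, adjusted p = 5.3e-05). Region 1 read 0.90, 0.69 and 0.29 (0.63 ± 0.31, 1.55-fold, adjusted p = 0.00149). Array 3 was the lowest of the 3 in each of the 6 regions. With the mode of each array as zero, which lies 0.64 to 0.81 above the median, region 5 fell to 0.28 (adjusted p = 0.065) and region 1 to -0.09 (adjusted p = 0.56), whereas the other 4 regions stayed higher. With normexp background correction the 6 levels were between 0.30 and 1.05.

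**Figure D1:**
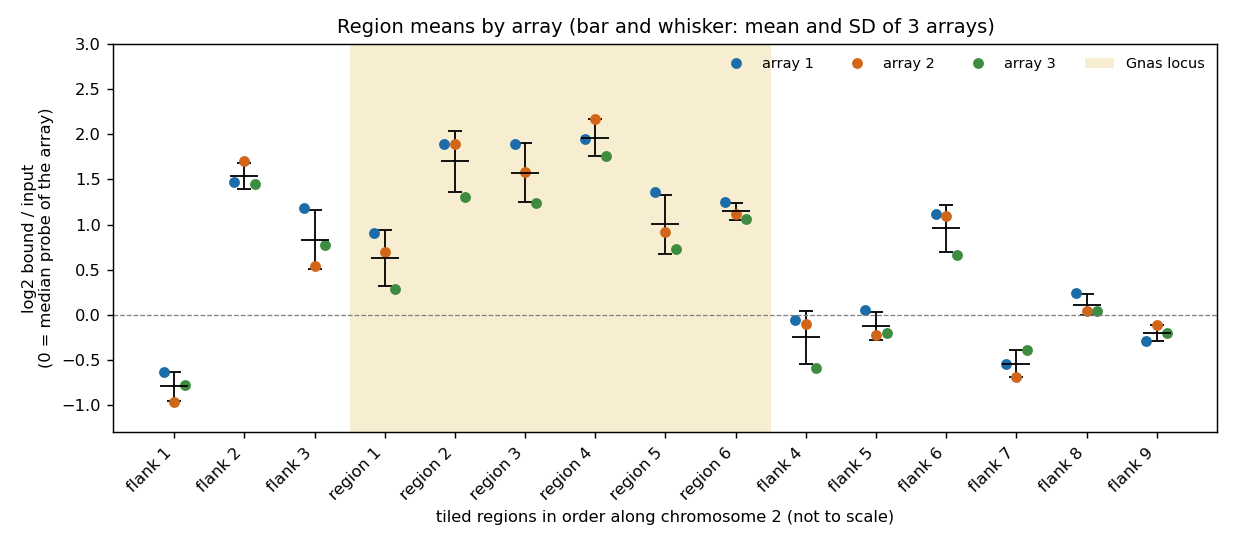
Mean log2 ratio of bound over input DNA (y axis) of the 6 regions of the Gnas locus (shaded) and of 9 tiled regions on both sides, in order along chromosome 2 and not to scale. Points are the 3 arrays, bars and whiskers their mean and SD. Regions 2, 3 and 4 have means of 1.57 to 1.96. In 6 of the 9 flanking regions every array lies at or below 0.25, and the highest mean among those 6 (0.11) exceeds that of 62.5% of all regions.

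The locus was then set against its surroundings, which asks whether the high values belong to this stretch of the chromosome as a whole. Of the 123 flanking probes 122 lay in 9 tiled regions, 3 on the left and 6 on the right. The mean of the 9 flanking regions was 0.17 ± 0.10 and that of the 6 regions of the locus 1.34 ± 0.24, where the errors are SDs over the 3 arrays and not over regions. Locus minus flanks was 1.26, 1.25 and 0.98 on the 3 arrays (1.16 ± 0.16, n = 3). With 3 arrays the exact permutation of signs (two-sided) cannot give a p below 0.25, so no call was made on this mean. The flanks were not uniform. Flank region 2, at 173934633 to 173934850 with 3 probes, was at 1.54 ± 0.14, above regions 1, 5 and 6. Flank region 6, at 174275677 to 174276413, was at 0.96 ± 0.26, and flank region 3, at 173935401 to 173936049, at 0.83 ± 0.33. The lowest were flank region 1, at 173900591 to 173902713 (-0.79 ± 0.16), flank region 7, at 174289402 to 174290832 (-0.54 ± 0.15), and flank region 4, at 174240122 to 174241512 (-0.25 ± 0.29). In 6 of the 9 flanking regions every array read 0.25 or less, and the lowest array value of any locus region was 0.29. Such low values were common on the array. The highest mean among those 6, at flank region 8 (0.11), exceeded that of only 62.5% of all regions.

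A contrast that does not depend on the zero of the array was fitted for every region, as its mean minus that of other regions whose midpoints lay over 45 and up to 500 kb away. Of 27690 regions with at least 3 such neighbours, 31.3% were higher than their neighbours and 35.2% lower. In the Gnas locus 5 of 6 regions were higher and none lower. The difference was largest at exon 1A, with region 4 above its 11 neighbours by 1.62, 1.98 and 1.68 on the 3 arrays (1.76 ± 0.19, limma adjusted p = 5.22e-07). Region 2 exceeded its neighbours by 1.39 ± 0.25 (adjusted p = 3.33e-06) and region 3 by 1.32 ± 0.22 (adjusted p = 3.76e-06). Smaller differences were found for region 6 (0.72 ± 0.07, adjusted p = 0.000181) and for region 5 (0.67 ± 0.19, adjusted p = 0.000491).

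Region 1 differed from its neighbours by 0.34, 0.26 and -0.03 (0.19 ± 0.19, adjusted p = 0.19), which did not pass. For each locus region, not only for region 1, the neighbours took in part of the locus itself. With neighbours within 250 kb the difference of region 1 was 0.098 (adjusted p = 0.51). With neighbours over 90 kb away, a choice made after the data were seen, it was 0.47 (adjusted p = 0.0056), and with neighbours within 1000 kb it was 0.63 (adjusted p = 0.0012). Regions 2, 3, 4, 5 and 6 were at 1.54, 1.41, 1.76, 0.80 and 0.94 with neighbours over 90 kb away. For region 6 the call was lost with loess normalization (0.09, adjusted p = 0.47). With normexp correction the differences of regions 2, 3, 4 and 5 were 0.76, 0.70, 0.95 and 0.18, each still past the threshold.

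**Figure D2:**
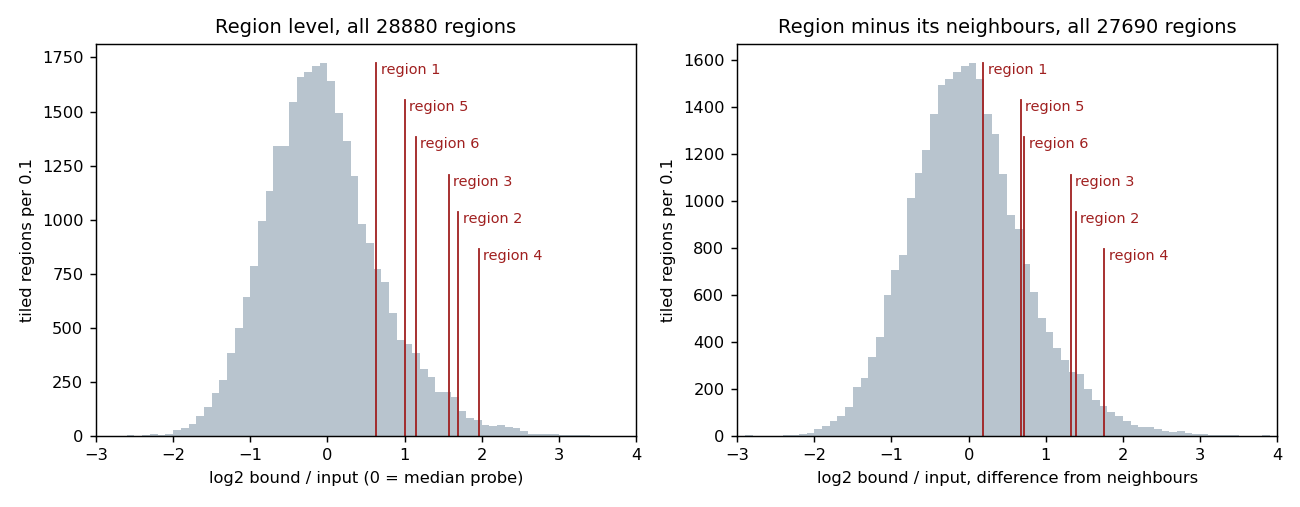
Distribution over all tiled regions (bars, number of regions per 0.1 on the y axis) of the region level, left, and of the region minus its neighbours, right, both as log2 ratios on the x axis. Red lines mark the 6 regions of the Gnas locus, of which region 4 lies farthest right in both panels, at 1.96 and 1.76.

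Neighbouring regions within the locus were compared directly, in a fit over all 18610 pairs of adjacent regions with midpoints at most 50 kb apart, of which the right one was higher in 31.5% and lower in 31.2%. This comparison was added after the data were seen. At region 5, taken as that of the main Gnas start, the ratio was lower than at region 4, around exon 1A. Only 971 bp of untiled sequence lay between them. Region 5 minus region 4 was -0.59, -1.26 and -1.03 (-0.96 ± 0.34, limma adjusted p = 0.000308), or a 1.95-fold lower ratio. With loess it was -0.43 and did not pass (adjusted p = 0.0505). With probes joined up to 300 bp it was -0.82 (adjusted p = 0.0043). The value for region 2 exceeded that for region 1 by 1.07 ± 0.11 (adjusted p = 5.7e-05).

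Region 3 minus region 2 was -0.13 ± 0.17 (adjusted p = 0.52), region 4 minus region 3 was 0.39 ± 0.29 (adjusted p = 0.062) and region 6 minus region 5 was 0.14 ± 0.23 (adjusted p = 0.46), so none of these passed. The difference between regions 3 and 4 passed with normexp (0.20, adjusted p = 0.021), with loess (0.38, adjusted p = 0.049), without replicate 1 (0.56, adjusted p = 0.012) and with probes joined up to 1000 bp (0.39, adjusted p = 0.049). That between regions 5 and 6 passed in opposite directions, at -0.71 with loess (adjusted p = 0.0025), and at 0.40 with normexp (adjusted p = 0.0041), 0.59 with the series matrix values (adjusted p = 0.011) and 0.38 over probes with both channels above background (adjusted p = 0.032).

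At single probes, 76 of the 105 were higher than the median probe and none was lower in limma's fit over 409559 probes, in which 22.4% of all probes were higher and 23.6% lower. The log2 ratio was above 0 on all 3 arrays for 89 probes and below 0 on all 3 for 6 probes, 5 of them in region 1. The share of all probes with such signs is not given here, so these 2 counts only describe the locus. The median over the 105 probe means was 1.30, with a range of -1.03 to 3.25. By region, 17 of 18 probes were higher at exon 1A, 12 of 14 in region 3, 19 of 23 in region 2, 8 of 11 in region 5, 10 of 16 in region 6 and 10 of 23 in region 1. In the flanks 24 of 123 probes were higher and 32 lower. With the mode as zero 43 locus probes were higher and 9 lower, and without replicate 2 there were 49 higher probes. The shares over all probes under these settings are not given here, so these counts too only describe the locus.

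The profile of exon 1A was a peak. Values were 0.81 at the left end of region 4 and rose to 3.19 ± 0.30 at the probe from 174152892 to 174152936, the highest of the region among probes with input above background on all arrays. That probe read 3.32, 3.40 and 2.84, a ratio 9.11-fold that of the median probe (limma adjusted p = 0.0038). Values then fell to 0.78 ± 0.28 at 174153353 to 174153397, and the last probe was again at 2.22. A run of 14 neighbouring probes over 1104 bp was higher. Probes within 200 bp of the midpoint averaged 2.86 ± 0.09 and those over 500 bp from it 1.35 ± 0.16, so the centre exceeded the edges by 1.52, 1.42 and 1.59 (1.51 ± 0.09, adjusted p = 0.000326). Of 21386 regions tested for this, 17.0% had a higher centre and 32.4% a lower one. With loess the difference was 0.90. Left minus right part was -0.33 ± 0.28 (adjusted p = 0.18), which passed with normexp (-0.47, adjusted p = 0.0020), with the series matrix values (-0.57, adjusted p = 0.032) and over probes with input above background on all arrays (-0.87, adjusted p = 0.00064).

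Region 3, near Nespas and Gnasxl, was high along its whole length. All 14 probes were above 0 on every array, from 0.73 ± 0.14 at 174122186 to 174122236 to 2.38 ± 0.43 at 174122729 to 174122773, where the arrays read 2.88, 2.09 and 2.18. Its centre was at 2.08 ± 0.31 and its edges at 1.40 ± 0.11, a difference of 0.68 ± 0.24 (adjusted p = 0.033). This call was lost with normexp (0.17, adjusted p = 0.15), with the series matrix values (0.36, adjusted p = 0.22) and without any 1 of the replicates (0.54 without replicate 1, 0.74 without replicate 2 and 0.76 without replicate 3, adjusted p = 0.072 to 0.13). With loess the difference was larger, at 1.52 (adjusted p = 0.00013). Its left and right parts were at 1.52 ± 0.22 and 1.63 ± 0.44.

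In region 2, at Gnas start 1 by spacing, a lower left end of 4 higher probes, with means of 0.93 to 1.22, was followed, after 1 probe that did not pass, by 4 higher probes of 1.61 to 2.35 and, after 2 probes that did not pass, by a run of 11 higher probes over 1097 bp. The highest probe, from 174110137 to 174110181, read 2.98, 3.23 and 2.95 (3.05 ± 0.15, 8.3-fold, adjusted p = 0.0038). The lowest with input above background on all arrays, from 174108879 to 174108935, was at 0.93 ± 0.50. Left minus right part was -0.45 ± 0.40 (adjusted p = 0.086), which passed with loess (-0.91, adjusted p = 0.0017) and over the 16 probes with input above background on all arrays (-0.56, adjusted p = 0.011). Centre minus edges was 0.31 ± 0.51 (adjusted p = 0.34). In the middle of this region 3 neighbouring probes, from 174109917 to 174110094, had input below background on all arrays, and a further probe near the right end did too, so the ratio there has no measured denominator. Of these 4 probes 3 count among the run of 11, including its first 2, so that the start of this run rests on ratios without a measured input. The first probe of the region, from 174108634 to 174108693, had both channels below background on all arrays and read -0.48, 2.32 and 0.63. It counts in the mean, the left part and the edges of region 2.

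**Figure D3:**
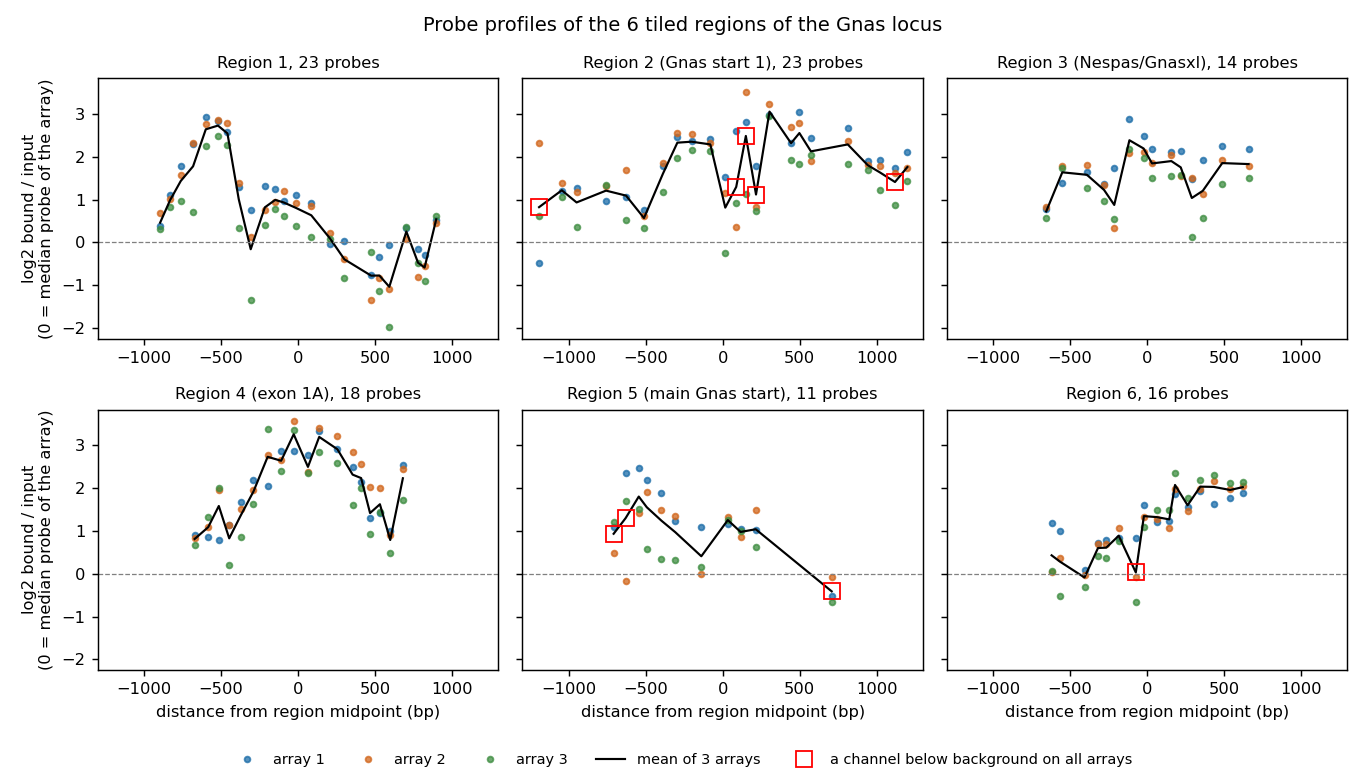
Log2 ratio of bound over input DNA (y axis) of each probe against its distance in bp from the midpoint of its region (x axis) for the 6 regions of the Gnas locus. Points are the 3 arrays, the line their mean, and red squares mark probes with input, bound DNA or both below background on all arrays. Region 4 peaks near its midpoint above 3, region 1 falls from 2.73 to -1.03 and region 6 rises to about 2.07.

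Region 1, at the spacing of the Mir296 and Mir298 hairpins, had a high stretch within its left part, while no probe of its right part passed as higher or lower. Its first probe (0.46) and its last (0.54) were alike and did not pass. The arrays read 2.83, 2.86 and 2.49 at the probe from 174092801 to 174092846 (2.73 ± 0.21, 6.62-fold, adjusted p = 0.0038), which belonged to a run of 7 higher probes over 492 bp. About 1 kb further on, the probe from 174093910 to 174093961 read -0.05, -1.08 and -1.97 (-1.03 ± 0.96, adjusted p = 0.083), with bound DNA above background on 1 array. The left part of the region was at 1.31 ± 0.40 and the right part at -0.25 ± 0.24. Left minus right was 1.56, 1.83 and 1.27 (1.56 ± 0.28, adjusted p = 5.45e-05), where 26.5% of 23672 regions had a higher left part and 27.4% a higher right part. With normexp it was 0.72, still past the threshold. The mean of region 1 averaged over both parts.

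Region 6 had the opposite slope. Its first 3 probes were at 0.43, 0.28 and -0.09 ± 0.20, and its last 9 probes were all higher, over 687 bp, with means from 1.27 to 2.07. The highest, from 174172813 to 174172859, read 1.86, 1.98 and 2.36 (2.07 ± 0.26, 4.19-fold, adjusted p = 0.0041). The left part was at 0.51 ± 0.36 and the right part at 1.78 ± 0.18, and left minus right was -0.76, -1.24 and -1.83 (-1.27 ± 0.54, adjusted p = 0.000518). With loess this difference was -0.31 (adjusted p = 0.25). No start in the tables used here was tied to this region.

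Region 5, taken as that of the main Gnas start, had fewer probes and a wider spread. Where the start and its CpG island lie among these probes was not determined. Its highest probe, from 174154614 to 174154658, read 2.46, 1.41 and 1.52 (1.80 ± 0.58, 3.48-fold, adjusted p = 0.0081), the probe nearest exon 1A with input above background on all arrays. Higher probes formed a run of 4 with means of 0.97 to 1.80 and a run of 3 with means of 0.97 to 1.25. Between them the probe from 174155017 to 174155067 read 1.08, -0.00 and 0.14 (0.41 ± 0.59, adjusted p = 0.30). The last probe, from 174155866 to 174155910, was at -0.41, and its bound signal was below background on every array. It stood apart, since the probe before it ended at 174155417. With probes joined up to 300 bp, which leaves the last probe out, region 5 was at 1.14 ± 0.36. In the main fit its left part was at 1.17 ± 0.51 and its right part, which includes the last probe, at 0.71 ± 0.18. The difference of 0.46 ± 0.55 did not pass (adjusted p = 0.11).

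**Figure D4:**
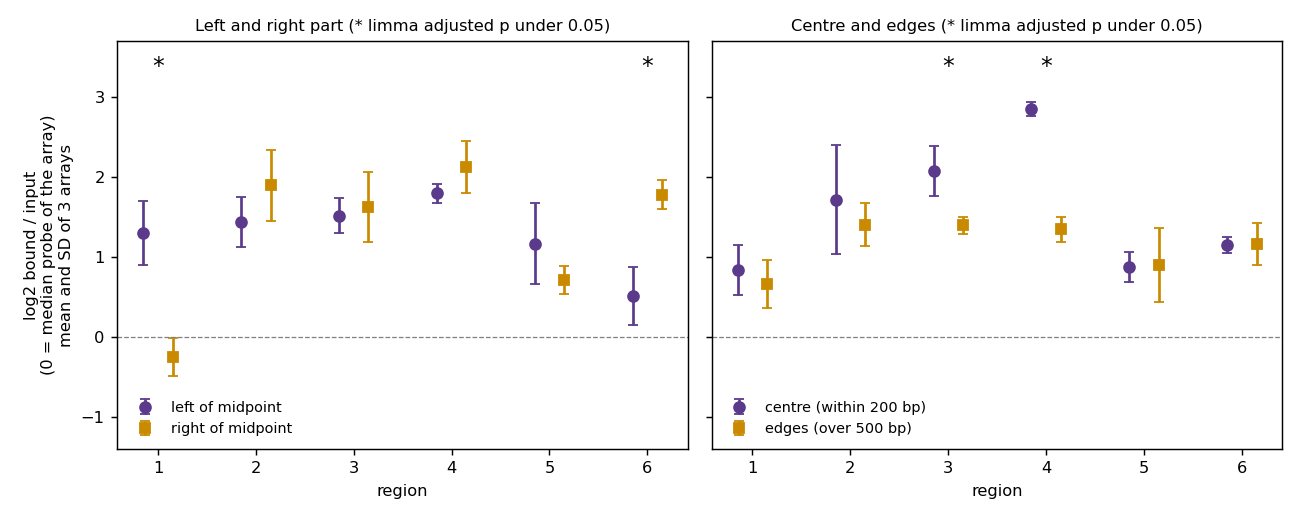
Mean log2 ratio of bound over input DNA (y axis, mean and SD of 3 arrays) in the left and right part of each region of the Gnas locus, left panel, and at its centre and edges, right panel, with the region number on the x axis. Stars mark a limma adjusted p under 0.05, reached by regions 1 and 6 for left and right and by regions 3 and 4 for centre and edges.

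The signals behind these ratios differed between regions. Input DNA was well above background in 84.4% and bound DNA in 87.0% of the 315 probe measurements of the locus, against 73.8% and 54.7% over all probes. The median log2 input signal of a region ran from 8.70 in region 5 to 11.3 in region 6, and the median bound signal from 9.77 in region 5 to 12.1 in region 6. Region 5 was thus the dimmest, with 24 of 33 input and 25 of 33 bound measurements above background. In region 2 input was above background in 50 of 69 measurements. Input was below background on all arrays for 5 probes with some bound signal, bound DNA alone for 1 probe, and both channels for 3 probes, 1 each in regions 2, 5 and 6. Of the 76 higher probes, 4 had input below background on all arrays, 3 in region 2 and 1 in region 5, and so have no measured denominator. For the 1 in region 5 bound DNA was below background too. The part of signal brightness in the differences between regions was not tested. With loess, which removes a trend with brightness, regions 2, 3, 4 and 6 fell to 1.37, 1.32, 1.71 and 0.56. Region 1 rose to 0.66 and region 5 to 1.27.

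**Figure D5:**
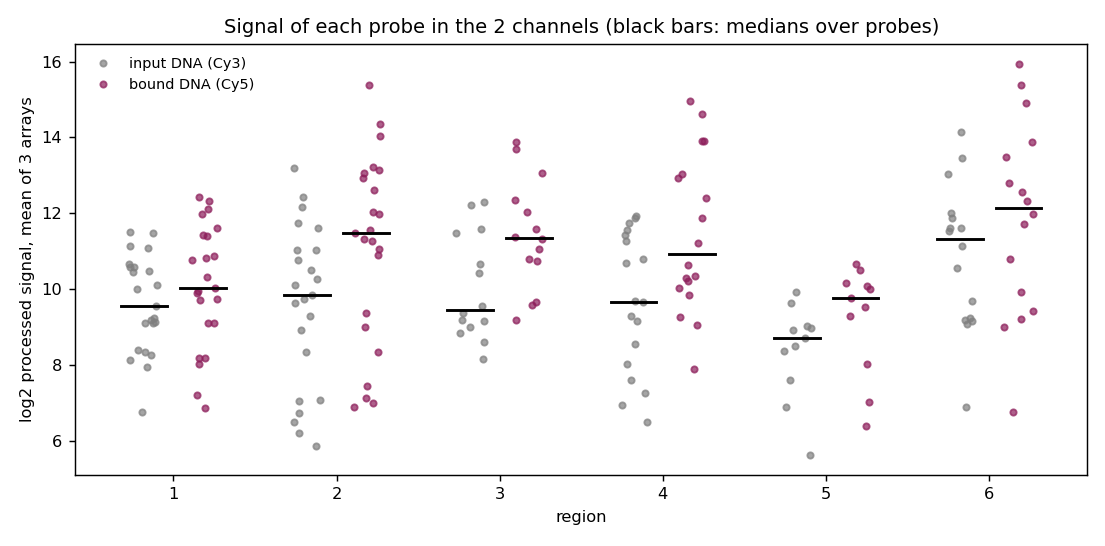
Log2 processed signal (y axis, mean of 3 arrays) of each probe in the input and the bound channel for the 6 regions of the Gnas locus (x axis). Black bars are medians over probes, and region 6 is brightest in both channels (11.3 and 12.1) while region 5 is dimmest (8.70 and 9.77).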

How the data were processed

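Bound and input DNA of 3 pools were hybridised to 2-colour Agilent arrays of 420288 spots. Per the file headers, the deposited intensities were made with Feature Extraction 10.7.3.1 on a custom mm9 design, and the processed intensity is background-subtracted, spatially detrended and dye-normalised. A deposited log10 ratio column gives Cy5 over Cy3. The authors' deposited series matrix holds log2 ratios that tracked bound over input (r = 0.999 or more on each array), with column medians of -0.97 and a normalization not given in the sources used here.

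Log2 ratios of bound over input processed signal were computed per spot. Spots flagged as outliers and control spots were left out, arrays were centred on their median, and repeated spots were averaged (2 of the 105 probes). Tiled regions had at least 3 probes with starts at most 500 bp apart. Levels and contrasts were tested with limma 3.58.1 in R 4.3.3 (1-group fit against 0, Benjamini-Hochberg adjustment over all probes or regions, threshold 0.05). The fit of region levels was tested on simulated data. The calls of the contrasts within and between regions were not checked in that way. Left and right parts needed at least 4 probes each, and centre (within 200 bp of the midpoint) and edges (over 500 bp) at least 2. Every region of the locus is named, with its highest and lowest probe among those with input above background on all arrays and its runs of at least 3 probes called alike, and the 3 highest and 3 lowest flanking regions. Other probes named in the profiles were chosen after their values were seen. The members and lists were chosen with earlier results of these data known. Promoter sequences are from RefSeq (GRCm38.p6); of Gnas and Nespas, 1 of 2 genes matched. Dye and enrichment cannot be told apart, since all arrays had the same dye orientation. Alternatives were normexp, loess, other sources of the ratio, another zero, filters on dim probes, each replicate left out, other join distances and other neighbourhoods.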

Additional observations from a re-analysis of the deposited data

How the results depend on the processing

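In every alternative run, locus minus flanks (1.16) stayed above 0. It was 0.62 with normexp, 0.87 with loess, 1.46 with the median of regions and 1.51 as a mean over probes, and 1.12 to 1.26 with 1 replicate left out. For the counts that follow, the shares over all probes or regions under each alternative are not given, so they only describe the locus. The 6 higher regions became 4 with the mode as zero, within 1.5 times, and region 1 then reversed to -0.089, because the zero moved up. Higher probes (76) were 43 with the mode as zero and 49 to 65 with 1 replicate left out, the fewest without replicate 2. Lower probes (0) were 9 with the mode as zero, 3 with normexp, 3 over probes whose input was above background, 2 with both channels above background, 1 when probes dim in both channels were dropped, and 0 to 2 with 1 replicate left out. Regions with a higher centre (2) were 1 with normexp, 1 with the series matrix and 1 without any 1 replicate, and those with a lower centre (0) were 1 with both channels above background (region 6, at -0.61). Regions with a higher right part (1) were 2 with normexp, 2 with the series matrix and 3 with input, or with both channels, above background. Pairs with a higher right region (1) were 3 with normexp, 2 with loess, with joins up to 1000 bp, with series matrix values and over probes above background in both channels, and 1 to 2 with 1 replicate left out.

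Values that changed sign, the cause of which was not tested, were mostly differences that had not passed. Centre minus edges reversed in region 1 with loess (-0.22) and with both channels above background (-0.13), in region 2 with normexp (-0.047) and the series matrix (-0.13), and in region 5 with the series matrix (0.55) and with 1 replicate left out (-0.20 to 0.087). In region 6 it reversed with loess (0.31), over probes with bright input (0.21), when probes dim in both channels were dropped (0.21) and with 1 replicate left out (-0.10 to 0.073). Region 3 minus region 2 became 0.11 with the series matrix, and region 6 minus region 5 became -0.71 with loess. The scanner files held no mean spot signal, so normexp used spot and background medians. Some shape contrasts in regions 2 and 5 could not be computed under the filters on dim probes. No paired analysis was possible because there was only 1 group.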

Other observations

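One probe of the right flank stood alone outside any tiled region, from 174416800 to 174416844. Its log2 ratios were -2.24, -2.52 and -2.92 (-2.56 ± 0.34, n = 3, limma adjusted p = 0.0038), below every probe mean of the Gnas locus. It was singled out after its value was seen.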
